A study of Mus musculus with 8 samples.

Results

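The miR-30 family was examined here through its 5 guide-strand (5p) miRNAs, mmu-miR-30a-5p, mmu-miR-30b-5p, mmu-miR-30c-5p, mmu-miR-30d-5p and mmu-miR-30e-5p, which were chosen by name from the 1881 mouse miRNAs on the array. The species prefix is left out below. Plasma came from female NMRI mice, an outbred stock, aged 3 months. Imatinib (IMB), a tyrosine kinase inhibitor, was given by mouth at 100 mg/kg on each of 9 days. Doxorubicin (DOX), an anthracycline that damages DNA, was injected into the tail vein in 4 doses of 3 mg/kg on alternate days. Control mice (CTRL) received only the solvents. Blood was taken from the aorta the day after the last dose, into tubes coated with K2EDTA. RNA was isolated from 300 µl of a plasma pool, with 3 mice to a pool and a pool to an array, and there were 3 DOX pools, 3 IMB pools and 2 CTRL pools. The labels call the pools biological replicates, so variation between single mice within a pool cannot be seen, and 2 control pools limit the precision of every comparison with them.

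A miRNA guides the silencing complex to messenger RNAs that pair with its seed, a short stretch near its 5′ end, and lowers their translation and stability. The miR-30 miRNAs share a seed, so their predicted targets overlap widely. They are expressed in many tissues, among them heart, kidney, liver and endothelium, and are known as regulators of mitochondrial fission and apoptosis in heart muscle, of fibrotic genes such as Ctgf, and of vessel sprouting. Plasma carries miRNAs released by blood cells, endothelium and solid organs in vesicles, lipoproteins and protein complexes.

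The sequences are shown because the family is defined by its seed and its members differ by few bases, which bears on what an array probe can tell apart. Mature sequences were matched by name in RefSeq (GRCm38.p6) for 3 of the 5 members. Capitals mark the seed, bases 2 to 8 from the 5′ end, and miR-384-5p is added as another miRNA with that seed.

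miR-30a-5p: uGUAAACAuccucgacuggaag
miR-30c-5p: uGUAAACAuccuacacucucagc
miR-30e-5p: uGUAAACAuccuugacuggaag
miR-384-5p: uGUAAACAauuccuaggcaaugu

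The sequence of miR-30a-5p lies at chr1:23272274-23272295 on the plus strand. miR-30c-5p has 2 genes with the same mature sequence, Mir30c-2 at chr1:23291714-23291736 on the plus strand and Mir30c-1 at chr4:120769584-120769606 on the minus strand. miR-30e-5p lies at chr4:120772660-120772681 on the minus strand, and miR-384-5p at chrX:105344332-105344354 on the minus strand. In the annotation Mir30a and Mir30c-2 are nearest neighbours among miRNA genes on chromosome 1, as are Mir30b and Mir30d on chromosome 15. Mir30c-1 and Mir30e both lie within the span of the protein-coding gene Nfyc, which encodes a subunit of the NF-Y transcription factor. Counted from the 5′ end of miR-30a-5p, miR-30e-5p carries a single change, C13U, and is identical at 21 of 22 positions. miR-30c-5p carries C13A, G14C, G18C, G19U and A20C and is identical at 17 of 22. The seed GUAAACA occurred in 4 of the 1679 distinct mature miRNA names of the RefSeq table, the ones printed above. The members miR-30b-5p and miR-30d-5p were not matched by name there, so the count leaves them out. miR-384-5p was on the array and was detected on 0 of 8 arrays. How far the array separates members that differ by so few bases was not tested, so the signal of each member is uncertain to that extent.

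All 5 members were measured in every plasma pool. Each was detected on 8 of 8 arrays, both by the scanner software's own flag and by the rule used here, under which over 50% of a probe's spots had to be well above background. miR-30a-5p had 3 probes and each other member had 2. Every kept spot of every member was well above background, for example 239 of 239 for miR-30a-5p and 228 of 228 for miR-30b-5p, and 0 spots were saturated. The median coefficient of variation among spots of a probe lay between 4.00% and 6.71%. Signals before scaling were brightest in IMB pool 2. The total gene signal, a background-subtracted intensity per miRNA, ran from 161 to 350 for miR-30a-5p, from 95.04 to 264 for miR-30b-5p, from 66.3 to 199 for miR-30c-5p, from 126 to 261 for miR-30d-5p and from 75.01 to 205 for miR-30e-5p. The arrays as a whole also differed in brightness. The 75th percentile of commonly detected probes, to which each array was scaled, ran from 196 in IMB pool 1 to 425 in IMB pool 2, and 258 to 339 mouse miRNAs were detected per array. All values below are log2 scaled signals unless said otherwise. Because arrays were scaled, they show amounts relative to the other miRNAs of the same plasma; less of all miRNAs in plasma, or less RNA from fewer releasing cells, cannot be told apart from them.

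The comparison of imatinib with control asks whether the drug altered circulating miRNAs. None of the 5 members passed the threshold (adjusted p under 0.05, limma with Benjamini-Hochberg adjustment over 294 tested miRNAs), beside 1.02% of all tested. At an unadjusted p under 0.05 the count was 1 of 5, miR-30c-5p, beside 7.82% of all. IMB and CTRL pools did not overlap for 1 of 5 members, again miR-30c-5p, beside 17.7% of all tested miRNAs. None of the 5 was lower in every IMB pool than in both controls, beside 6.80% of all. Some tested miRNAs, such as miR-30a-3p, sat at the lower limit set for the signal on every array. They can only count as overlapping, which lowers these shares of all tested miRNAs in every comparison.

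miR-30c-5p, the one member encoded by 2 genes, had the lowest values in the controls. It read 7.55 and 7.61 in the CTRL pools, 7.82, 7.82 and 7.69 in the DOX pools and 7.81, 7.92 and 7.80 in the IMB pools. Both controls lay below all 6 pools of treated mice, so neither drug group overlapped with the controls. Imatinib exceeded control by 0.27 (SE 0.06, 95% interval 0.12 to 0.41), which is 1.20-fold (1.09 to 1.33). The adjusted p in limma was 0.205 (unadjusted 0.00447, the fifth smallest of all tested), and it ranged from 0.111 to 1 over 25 alternative settings. The unadjusted p in limma was not under 0.05 with the total gene signal, normexp background correction, scaling over all mouse probes or no scaling. Nor was it with a floor 4 times lower, the brightest probe or the authors' deposited table. With the lower floor the difference was the same 0.27, but its SE was 0.16. An exact permutation test gave a 2-sided p of 0.1, the smallest that 3 against 2 pools allow. Of all tested miRNAs, 10.9% were likewise higher in every IMB pool than in both controls. Within the rows of the slide, the differences were 0.26 in row 1 (1 IMB pool against 1 CTRL pool) and 0.25 in row 2 (2 against 1). In a model that held the red cell index described below, the difference was 0.23 (adjusted p 0.557 in limma). That model cannot separate drug from red cell content, because the index did not overlap between IMB and CTRL pools. Without IMB pool 1 the difference was 0.28. The difference depended more on scaling. It was 0.15 without scaling, where the median of all tested miRNAs was -0.04. With miR-24-3p and miR-23a-3p as the scale it was 0.47, where that median was 0.19.

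In the same miRNA doxorubicin exceeded control by 0.20 (SE 0.06, 95% interval 0.05 to 0.34), or 1.15-fold (1.04 to 1.27), with an adjusted p in limma of 0.329. With a floor 4 times lower the difference was the same, but its SE was 0.16 and its unadjusted p in limma was not under 0.05. Nor was that p under 0.05 with the total gene signal, normexp background correction, the brightest probe or the authors' deposited table. This comparison uses the same 2 control pools as that of imatinib, so the higher values under both drugs are not separate observations. The doxorubicin difference was 0.27 in row 1 of the slide (2 DOX pools against 1 CTRL pool) and 0.08 in row 2 (1 against 1). Without scaling of the arrays the difference was -0.22, where the median of all tested miRNAs was -0.32. With miR-24-3p and miR-23a-3p as the scale, 0.03 was left, where that median was -0.08. Imatinib and doxorubicin differed by 0.07 in miR-30c-5p (95% interval -0.06 to 0.20, adjusted p 0.729 in limma). Without scaling that difference was 0.37, and with the scale from miR-24-3p and miR-23a-3p it was 0.45.

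**Figure D1:**
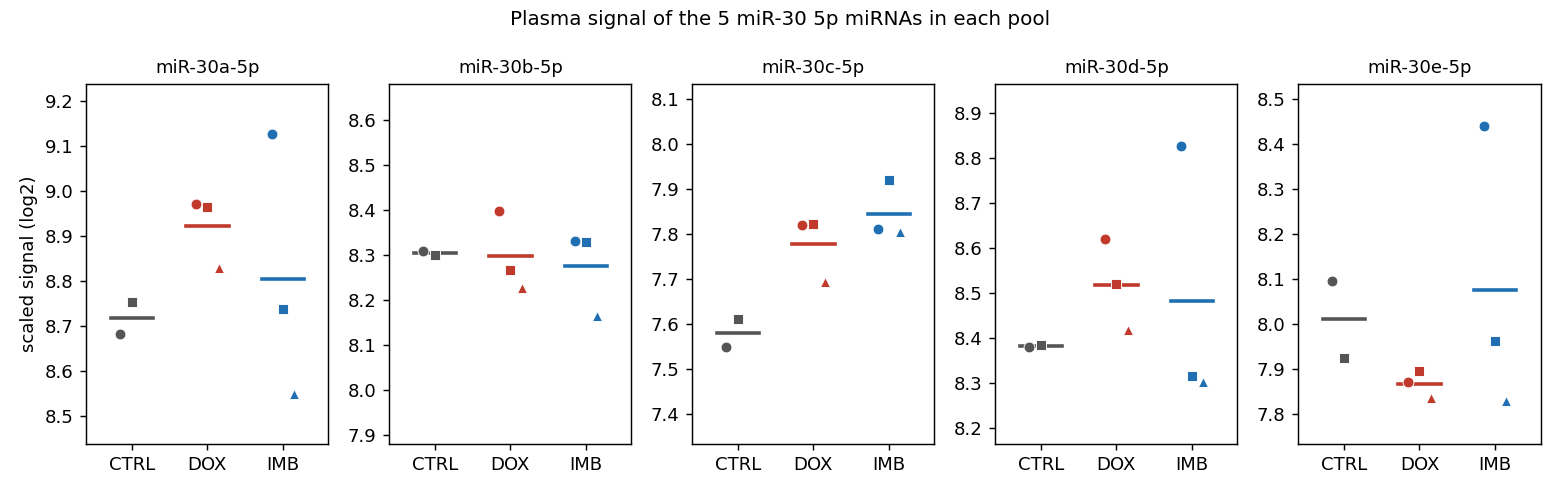
Scaled log2 signal of each miR-30 5p miRNA (vertical axis; every panel spans the same 0.8 log2 units) in each pool, by group. Points are pools, with circles for pool 1, squares for pool 2 and triangles for pool 3, and bars are group means. Both controls lie below all treated pools for miR-30c-5p, and IMB pool 1 lies far above the other IMB pools for miR-30a-5p, miR-30d-5p and miR-30e-5p.

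The comparison of doxorubicin with control asks the same of a cytotoxic drug. Again 0 of 5 members passed the threshold in limma, beside 0.340% of all tested miRNAs. At an unadjusted p under 0.05 there was 1 member, miR-30c-5p, beside 8.50% of all. Groups did not overlap for 4 of the 5 members, beside 28.6% of all tested miRNAs, a share lowered by the miRNAs at the limit on every array. Of these 4, miR-30a-5p, miR-30c-5p and miR-30d-5p were higher in every DOX pool than in both controls, which held for 18.7% of all tested. miR-30e-5p was lower in every DOX pool than in both controls, which held for 9.86% of all.

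miR-30a-5p, encoded beside Mir30c-2 on chromosome 1, read 8.68 and 8.75 in the controls. It read 8.97, 8.96 and 8.83 in the DOX pools and 9.13, 8.74 and 8.55 in the IMB pools. The DOX pools lay above the controls, while the IMB pools lay on both sides of them and held the highest and the lowest of the 8 values. Doxorubicin differed from control by 0.20 (95% interval -0.21 to 0.62, adjusted p 0.912) and imatinib by 0.09 (-0.33 to 0.51, adjusted p 0.974), both in limma. The doxorubicin difference was -0.22 without scaling and 0.03 with miR-24-3p and miR-23a-3p as the scale.

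miR-30d-5p, which shares a chromosome 15 locus with miR-30b-5p, followed miR-30a-5p from pool to pool. It read 8.38 in both CTRL pools, 8.62, 8.52 and 8.42 in the DOX pools and 8.83, 8.32 and 8.30 in the IMB pools. The DOX pools lay just above the controls and IMB pools 2 and 3 just below them. The differences from control were 0.14 for doxorubicin (95% interval -0.29 to 0.57, adjusted p 0.955 in limma) and 0.10 for imatinib (-0.33 to 0.53, adjusted p 0.974). That for doxorubicin was -0.29 without scaling and -0.04 with the scale from miR-24-3p and miR-23a-3p.

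miR-30e-5p, which differs from miR-30a-5p at a single base, was the one member that was lower after doxorubicin in every pool. It read 8.10 and 7.92 in the controls, 7.87, 7.90 and 7.84 in the DOX pools and 8.44, 7.96 and 7.83 in the IMB pools. The DOX values lay within a range of 0.06, just under the lower control. Doxorubicin differed from control by -0.14 (95% interval -0.60 to 0.31, adjusted p 0.955 in limma) and imatinib by 0.07 (-0.39 to 0.52, adjusted p 0.9998). The doxorubicin difference was -0.21 in row 1 of the slide (2 DOX pools against 1 CTRL pool) and -0.09 in row 2 (1 against 1). It was negative under all 25 alternative settings, from -0.56 to -0.06, and passed the threshold under none of them.

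miR-30b-5p was the steadiest member next to miR-30c-5p and showed the smallest differences. It read 8.31 and 8.30 in the controls, 8.40, 8.27 and 8.23 in the DOX pools and 8.33, 8.33 and 8.16 in the IMB pools. All 3 groups overlapped, and the 8 values spanned 0.23. The difference from control was -0.01 for doxorubicin, which is 0.99-fold (95% interval 0.88 to 1.13), and -0.03 for imatinib, which is 0.98-fold (0.86 to 1.11). The adjusted p in limma was 1 and 0.978.

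**Figure D2:**
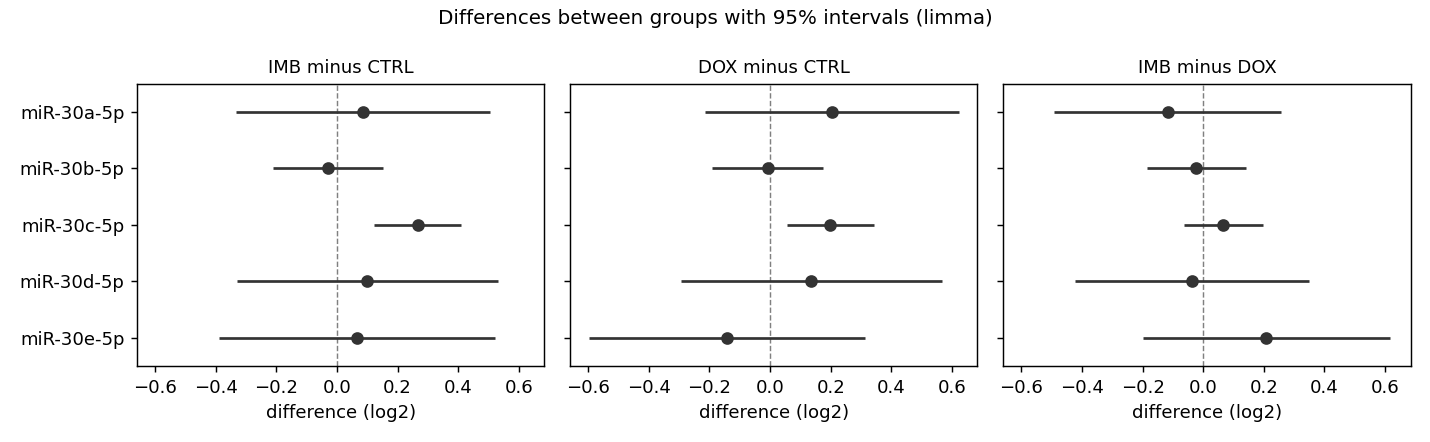
Difference in mean scaled log2 signal (horizontal axis) for each member in the 3 comparisons, with 95% intervals from limma on all 8 arrays. The intervals of miR-30c-5p against control lie above 0 for both drugs before adjustment for the number of miRNAs tested, and every other interval spans 0. Those of miR-30c-5p depend on the processing. With a floor 4 times lower its unadjusted p in limma was not under 0.05 for either drug.

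Between the drugs, 0 of 5 members passed the threshold in limma (1.02% of all tested), 0 had an unadjusted p under 0.05 (10.9% of all) and 0 were higher (6.80% of all) or lower (8.16% of all) in every IMB pool than in every DOX pool. miR-30e-5p differed by 0.21, with the higher mean after imatinib (95% interval -0.20 to 0.62, adjusted p 0.733 in limma). That difference was 0.03 without IMB pool 1, 0.52 without scaling, and 0.59 (adjusted p 0.0588 in limma) with miR-24-3p and miR-23a-3p as the scale. For miR-30a-5p the difference was -0.12 (-0.49 to 0.26, adjusted p 0.874). The sign for miR-30a-5p, miR-30b-5p and miR-30d-5p depended on scaling. All 5 members were higher after imatinib without scaling and with the scale taken from miR-24-3p and miR-23a-3p. Those settings moved the median of all tested miRNAs by 0.23 and 0.30, while the members' medians were 0.28 and 0.36.

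As a group the members lay close to the rest of the plasma profile. Their median difference was 0.09 for imatinib against control, where the median of all tested miRNAs was 0.01, and 4 of 5 were above 0, as were 60.9% of all. For doxorubicin against control the median was 0.14 against 0 for all, with 3 of 5 above 0 and 59.2% of all. Between the drugs it was -0.02 against 0, with 2 of 5 above 0 and 41.5% of all. Tested miRNAs at the lower limit on every array have a difference of 0, so they count among those not above 0.

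The spread between pools of a group differed among members. The pooled SD within groups was 0.07 for miR-30c-5p and 0.08 for miR-30b-5p, and 12.9% and 15.3% of tested miRNAs had a smaller one. It was 0.19 for miR-30a-5p, 0.20 for miR-30d-5p and 0.21 for miR-30e-5p, near the median of 0.22 over all tested miRNAs. Within the imatinib group the SD of these 3 was 0.29, 0.30 and 0.32 (n = 3), and within the doxorubicin group 0.08, 0.10 and 0.03 (n = 3). IMB pool 1 stood 0.30, 0.36 and 0.46 above the 8-array mean for miR-30a-5p, miR-30d-5p and miR-30e-5p, but only 0.04 and 0.06 above it for miR-30b-5p and miR-30c-5p. IMB pool 3 held the lowest of the 8 values for every member except miR-30c-5p. IMB pool 1 also had the lowest 75th percentile before scaling, 196, and its part in these values was not tested. Without it the differences of imatinib from control were -0.07 for miR-30a-5p, -0.07 for miR-30d-5p and -0.12 for miR-30e-5p, so the sign of these 3 rests on that pool. With all pools and the scale from miR-24-3p and miR-23a-3p they were 0.30, 0.31 and 0.27. Within row 1 of the slide, IMB pool 1 differed from CTRL pool 1 by 0.44, 0.45 and 0.34 for the same 3 miRNAs. In row 2 the mean of the other IMB pools differed from CTRL pool 2 by -0.11, -0.07 and -0.03.

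**Figure D3:**
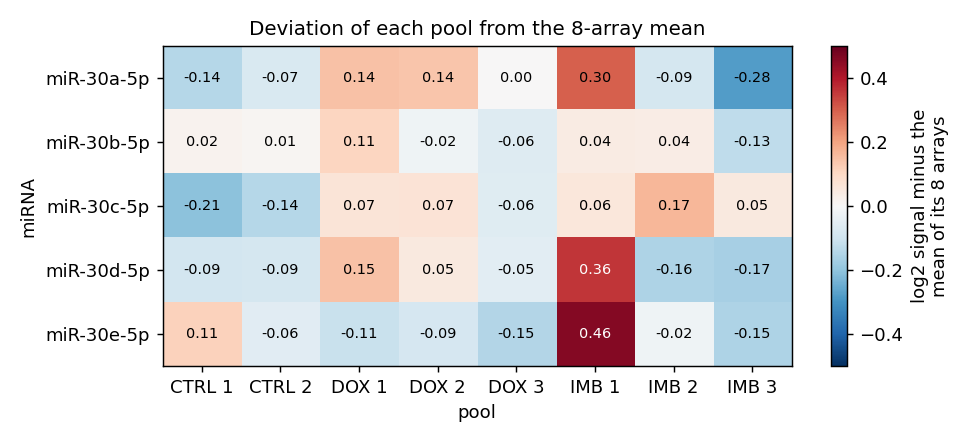
Scaled log2 signal of each member (rows) in each pool (columns) minus that member's mean over the 8 arrays, with the value printed in each cell (red above the mean, blue below). IMB pool 1 is high for miR-30a-5p, miR-30d-5p and miR-30e-5p, and both controls are low for miR-30c-5p.

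The 5 members did not move as a unit over the pools. Likeness was measured as the root mean square difference between 2 centred profiles over the 8 arrays, as a description. The closest pair was miR-30a-5p and miR-30d-5p at 0.06, although they are encoded on different chromosomes. Of the other tested miRNAs, 1, miR-2861, was closer to miR-30a-5p. Both miR-2861 and miR-149-3p were closer to miR-30d-5p than miR-30a-5p was. The neighbours on chromosome 15, miR-30b-5p and miR-30d-5p, were 0.14 apart. The neighbours within Nfyc, miR-30c-5p and miR-30e-5p, were the least alike pair at 0.23, and 122 tested miRNAs were closer to miR-30c-5p than miR-30e-5p was. miR-30c-5p also comes from chromosome 1, so an array cannot tell its 2 genes apart. The 289 other tested miRNAs lay at a median of 0.24 from the family's mean profile. The 5 nearest to that profile were miR-3620-5p (0.06), miR-132-3p (0.06), miR-22-3p (0.08), miR-532-5p (0.08) and miR-186-5p (0.08). Only miR-22-3p among these was detected on all arrays. The values of the other 4 sat at the floor on 5 to 7 arrays, so their flat profiles carry little information.

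Ratios between members on the same array do not depend on how arrays were scaled by a single factor. The size of such a ratio has no meaning across probes, so only its change between groups is given. The log2 ratio of miR-30a-5p to miR-30e-5p was 0.59 and 0.83 in the controls, 1.101, 1.068 and 0.993 in the DOX pools, and 0.69, 0.78 and 0.72 in the IMB pools. All 3 DOX pools lay above the other 5 pools, of which the 2 controls were the lowest and the highest. The mean was 0.71 ± 0.17 (SD, n = 2) in controls, 1.05 ± 0.06 (n = 3) after doxorubicin and 0.73 ± 0.04 (n = 3) after imatinib. The difference of doxorubicin from control, 0.35, ranged from 0.23 without CTRL pool 1 to 0.47 without CTRL pool 2, and was 0.26 after normexp background correction and 0.49 in the authors' deposited table. The difference of imatinib from doxorubicin was -0.33, and -0.36 to -0.30 when single pools were left out. This pair was singled out from 10 after its values were seen, so no test is given.

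The ratio of miR-30d-5p to miR-30e-5p had the same order, at 0.28 and 0.46 in the controls, 0.75, 0.62 and 0.58 in the DOX pools and 0.39, 0.35 and 0.48 in the IMB pools. Again all DOX pools exceeded the other 5. Over all 10 pairs of members, 6 ratios had DOX and CTRL groups that did not overlap, beside 38.8% of the 29890 ratios among miRNAs detected on all arrays. Between the drugs it was 3 of 10 pairs, all with miR-30e-5p, beside 18.9%. For imatinib against control it was 1 of 10, the ratio of miR-30b-5p to miR-30c-5p, beside 24.3%.

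**Figure D4:**
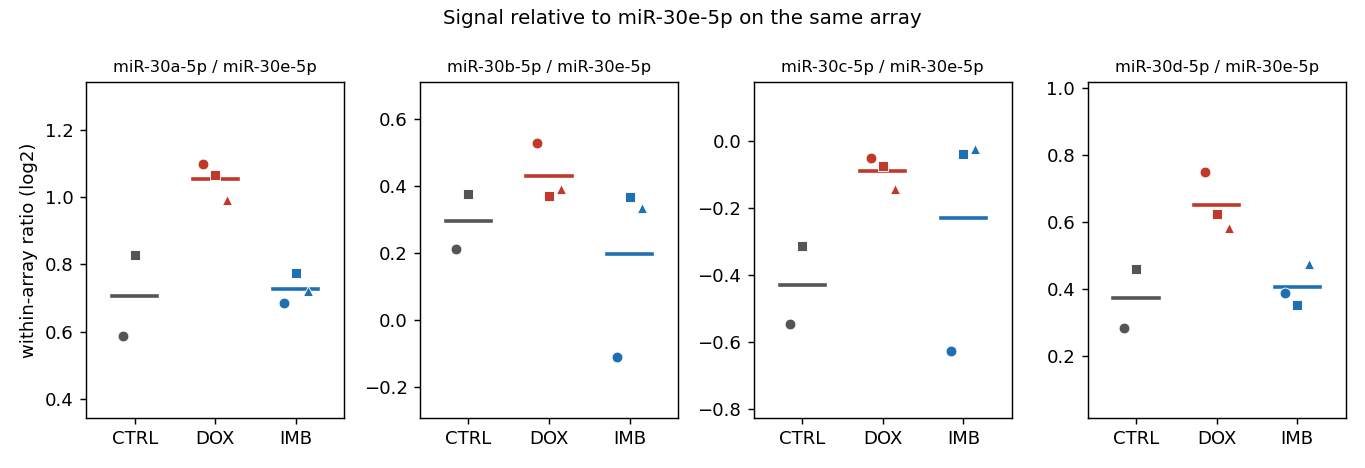
Log2 ratio of 4 members to miR-30e-5p on the same array (vertical axis; every panel spans 1 log2 unit), by group, with pools as points (circles pool 1, squares pool 2, triangles pool 3) and group means as bars. For miR-30a-5p and miR-30d-5p the 3 DOX pools lie above all CTRL and IMB pools.

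The probes of a member gave differences of different size. For miR-30c-5p the dimmer probe, A_54_P1270 (mean processed signal 95.8), showed 0.37 for imatinib against control and 0.32 for doxorubicin, and the brighter one, A_54_P3752 (351), 0.24 and 0.17. Both probes thus had the same sign in both comparisons. The 3 probes of miR-30a-5p showed 0.37, 0.23 and 0.14 for doxorubicin against control, in order of rising brightness. Both probes of miR-30e-5p were lower after doxorubicin than in control, by -0.07 and -0.17. Those of miR-30b-5p had opposite signs in both comparisons, at 0.03 and -0.04 for imatinib and 0.10 and -0.03 for doxorubicin, so its sign is not settled by its probes. In 5 of 5 members the dimmest probe gave a higher difference from control than the brightest, for both drugs. The same held for 64.5% (imatinib) and 69.3% (doxorubicin) of 186 tested miRNAs with at least 2 commonly detected probes, and the cause was not tested.

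Other arms of the family were near or below the limit of the array. Of 8 relatives on the array, miR-30c-1-3p was detected on 8 arrays, through 1 of its 4 probes, and miR-30a-3p on 6. Their total gene signals were 2.28 to 7.18 and 2.59 to 13.6. Averaged over all their probes, both lay at the floor of 20.9 (log2 4.39) on every array after scaling, so no difference between groups is given for those averages. The detected probe of miR-30c-1-3p, A_54_P3396, lay above the floor by itself, at 4.85 and 5.05 in the controls, 4.95, 5.21 and 4.69 in the DOX pools and 5.05, 5.23 and 5.31 in the IMB pools. On that probe the DOX and CTRL pools overlapped, and the lowest IMB pool equalled the higher control to 2 decimals. The brighter probe of miR-30a-3p, A_54_P4415, was at the floor on 5 arrays. It read 4.73 and 4.55 in DOX pools 2 and 3, and 4.39, the floor to 2 decimals, in IMB pool 2. Before scaling it was brighter in IMB pool 2 (31.7) and CTRL pool 2 (24.7) than in DOX pools 2 and 3 (23.4 and 22.2). miR-30e-3p, opposite to miR-30e-5p in its hairpin, was flagged as detected by the scanner software in IMB pool 2 alone, at 4.54, and on 0 arrays by the rule used here. miR-30b-3p, miR-30c-2-3p, miR-30d-3p, miR-384-5p and miR-30f were detected on 0 arrays.

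Markers of cells that may release miRNAs were read beside these values. Of 8 listed red cell miRNAs, 6 were tested. miR-144-5p was not detected, and miR-486b-5p was not on the array. Against control, 5 of the 6 were higher after imatinib, as were 60.9% of all tested miRNAs, and 1 passed the threshold (1.02% of all). After doxorubicin 0 of the 6 were higher (59.2% of all) and 0 passed it (0.340% of all). Their summed linear signal was 23742 to 39138 in controls, 18834 to 28181 after doxorubicin and 32776 to 41777 after imatinib. The red cell index, the log2 ratio of miR-451a to miR-23a-3p used as a sign of haemolysis, was 0.57 higher after imatinib than in controls and 0.66 lower after doxorubicin, a difference of -0.66. Of 6 listed muscle and heart miRNAs, miR-206-3p, miR-208a-3p and miR-499-5p were not detected. The other 3 summed to 69.5 to 69.7 in controls, 107 to 307 after doxorubicin and 95.9 to 1105 after imatinib. Signals below the floor of 20.9 were raised to it for each miRNA. The control sums were therefore mostly floor, and their narrow range is not a measured baseline. The endothelial miRNAs miR-126a-3p and miR-126a-5p summed to 756 to 798 in controls, 1007 to 1131 after doxorubicin and 536 to 1053 after imatinib, and 5 of 6 kidney and gut miRNAs, all but miR-204-5p, contributed 544 to 682, 703 to 918 and 622 to 861. The 4 platelet and myeloid miRNAs summed to 4458 to 4527, 3590 to 5031 and 2796 to 4136 in the same order of groups, and the 2 liver miRNAs to 830 to 999, 1165 to 1879 and 625 to 2414. Of the liver miRNAs, miR-122-5p was detected on 8 arrays and miR-122-3p on only 1. The red cell index ran from 3.18 to 3.84 in controls, 2.68 to 3.15 after doxorubicin and 3.90 to 4.45 after imatinib, without overlap. A model that holds it therefore cannot separate drug from red cell content. The part of the other markers in the values of the miR-30 members was not tested.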

How the data were processed

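Plasma miRNA was measured on 8 one-colour arrays (Cy3, 1 slide). The deposited scanner files hold spot intensity, background-subtracted and not scaled between arrays per the file headers, made with Agilent Feature Extraction (version 11.5.1.1) per the submitters' processing notes. The authors' deposited table holds log2 values. How they were made is not given in these sources, and they served as an alternative.

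Non-outlier spots were averaged per probe. Arrays were scaled to the 75th percentile of the 454 probes that every array detected. The mean over the probes of each miRNA was floored at 20.9 (the 1st percentile of detected probes) and log2-transformed. Tests used limma 3.58.1 (R 4.3.3) on all 8 arrays and the 294 mouse miRNAs that all arrays of some group detected (2-sided, 5 residual degrees of freedom, Benjamini-Hochberg within a comparison). Steps were tested on simulated data. Exact permutation tests of single members numbered 15, and their adjusted p was 0.6 or 1. Alternatives covered signal, background, scaling, floor, filter, probes, variance model, blocks, the red cell index and leaving out arrays; those of the within-array ratio were chosen after seeing the data. Named were the 5 members, 8 relatives, the 5 nearest profiles and marker miRNAs of red cells, platelets and myeloid cells, endothelium, liver, muscle and heart, and kidney and gut. Members and lists were chosen with earlier results of these data known. Figures used matplotlib 3.10.9.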

Additional observations from a re-analysis of the deposited data

How the results depend on the processing

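The count of members past the threshold in limma was 0 in each comparison under all 25 alternative settings. The differences of miR-30c-5p for imatinib against control, miR-30e-5p for doxorubicin against control and miR-30e-5p between the drugs kept their sign throughout. The other 12 changed sign under some setting, each without passing the threshold; the cause was not tested. Without scaling (median of all tested miRNAs -0.04 for imatinib, -0.32 for doxorubicin and 0.23 between the drugs), imatinib against control gave -0.028 for miR-30a-5p, -0.015 for miR-30d-5p and -0.049 for miR-30e-5p. Doxorubicin against control then gave -0.22 for miR-30a-5p, -0.22 for miR-30c-5p and -0.29 for miR-30d-5p, and imatinib against doxorubicin 0.19 for miR-30a-5p, 0.28 for miR-30b-5p and 0.27 for miR-30d-5p. With miR-24-3p and miR-23a-3p as the scale (medians 0.19, -0.08 and 0.30) the values were 0.18 for miR-30b-5p under imatinib and -0.036 for miR-30d-5p under doxorubicin, and 0.26, 0.36 and 0.34 between the drugs for miR-30a-5p, miR-30b-5p and miR-30d-5p. Scaling over all mouse probes gave 0.063 for miR-30b-5p and 0.049 for miR-30d-5p between the drugs, and median scaling -0.0076 for miR-30e-5p under imatinib. The slide row as a block gave 0.0016 for miR-30b-5p and 0.044 for miR-30d-5p between the drugs. As a covariate, the red cell index gave 0.085 for miR-30b-5p under doxorubicin, and -0.014 for miR-30c-5p and 0.070 for miR-30d-5p between the drugs. The authors' deposited table gave 0.025 for miR-30b-5p under doxorubicin.

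Leaving out 1 pool at a time, imatinib against control ranged from -0.074 to 0.21 for miR-30a-5p and from -0.073 to 0.19 for miR-30d-5p (negative without IMB pool 1), from -0.059 to 0.025 for miR-30b-5p (positive without IMB pool 3) and from -0.12 to 0.19 for miR-30e-5p (negative without IMB pool 1 or CTRL pool 2). Doxorubicin against control ranged from -0.058 to 0.028 for miR-30b-5p (positive without DOX pool 2 or 3). Between the drugs the ranges were -0.28 to 0.011 for miR-30a-5p (IMB pool 3), -0.058 to 0.033 for miR-30b-5p (DOX pool 1 or IMB pool 3) and -0.21 to 0.052 for miR-30d-5p (DOX pool 1, IMB pool 2 or 3). The ratio of miR-30a-5p to miR-30e-5p for imatinib against control ranged from -0.10 to 0.14 (negative without CTRL pool 1 or IMB pool 2). Leaving out a control left 1 pool in that group, which was assumed to vary like the others.

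Same-numbered pools were not shown to be paired: their deviations correlated at 0.05, -0.24 and 0.32 between DOX and IMB, and DOX pool 1 correlated best with IMB pool 2 (0.47). In the fit with the replicate block, miR-30b-5p gave 0.038 for doxorubicin and 0.015 for imatinib against control, and 2, 0 and 4 miRNAs were called over all tested for imatinib against control, doxorubicin against control and between the drugs, beside 3, 1 and 3 without it. Over all settings these counts ran from 0 to 12, 0 to 2 and 0 to 20. They were 12, 2 and 20 without IMB pool 1, with 0 members among them. All 3 were 0 with the red cell index in the model, where drug and index cannot be separated. Every kept spot of the members was well above background.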
